A study of Caenorhabditis elegans with 26 samples.

Results

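The furrow collagens dpy-2, dpy-3, dpy-7, dpy-8, dpy-9 and dpy-10 are 6 of the 42533 gene symbols in an RNA-seq count table of the nematode Caenorhabditis elegans, made from whole worms at day 1 of adulthood. They were taken by name, as the collagens of the annular furrows of the cuticle, and followed across 5 strains with different doses or promoters of flp-17, which encodes a neuropeptide of the BAG sensory neurons. All strains carried the reporter zcls4[hsp-4p::GFP]V. AEF276 added the loss-of-function allele flp-17(n4894)IV (n = 5). AEF378 carried the extrachromosomal array ashEx67, which holds gcy-31p::flp-17::GFP, flp-17 under the promoter of a guanylate cyclase gene, and coel::RFP as a marker (n = 5). The array of AEF373 holds flp-17 under its own promoter and with its own 3′ end, and unc-122p::mCherry as a marker (n = 5). AEF149 carried the array ssrEx1193, with a flp-17p::flp-17::GFP fusion and the marker myo-3p:mCherry (n = 5). AEF231, the control, had the reporter alone (n = 6). AEF276, AEF378 and AEF373 were in the background of AEF231, a 6x outcross of SJ4005 into N2, whereas AEF149 was in the SJ4005 background itself. Arrays are not present in every animal, so the 3 array strains were sorted by fluorescent marker 24 h before collection, while AEF276 and AEF231 were washed and replated. Array and sorting cannot be told apart in these samples. Each library came from 200 to 500 animals, and each array strain is represented by a single array. Libraries are labelled as replicates with no word on separate cultures, and the p-values refer to the spread among them, which may be technical.

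The cuticle of C. elegans is a layered matrix of collagens and other proteins that the epidermis secretes and renews at each moult. Its surface is divided into annuli by circumferential furrows, and the 6 genes encode collagens needed for those furrows. Loss of any of them gives a short, dumpy animal without normal furrows, and in C. elegans the loss of furrows is known to switch on osmotic, antimicrobial and detoxification genes in the epidermis. In larvae the furrow collagen mRNAs are made early in each moulting cycle. Adults no longer moult, but gravid adults hold embryos, whose epidermis makes the cuticle of the first larval stage before hatching.

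By the Ensembl annotation of WBcel235, dpy-2 (WBGene00001064) lies on chromosome II from 6714292 to 6715971 on the plus strand, and dpy-10 (WBGene00001072) on II from 6710149 to 6712227 on the minus strand, 2064 bases away. The X chromosome holds dpy-3 (WBGene00001065, 2144605 to 2145647), dpy-7 (WBGene00001069, 7536467 to 7537792) and dpy-8 (WBGene00001070, 5148804 to 5150476), all on the minus strand. dpy-9 (WBGene00001071) lies on chromosome IV from 257403 to 259204, also on the minus strand. Each is annotated as protein coding. 2 of the 6 overlap another gene. dpy-10 shares 1217 bases with T14B4.19 on the same strand, which had 288 reads over all libraries against 1883 for dpy-10. dpy-8 shares 109 bases with C31H2.14 on the other strand, which had 675 reads against 845 for dpy-8. The sources used here do not say how reads in such overlaps were assigned, which leaves these 2 genes less certain.

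Library totals lay between 9659877 and 15528669 counts, and 13315 genes passed the filter on low counts. As a check of the labels, flp-17 itself averaged 0.310 ± 0.307 CPM (the count scaled to library size by TMM, SD) in the 5 libraries of AEF276. The averages of the 5 libraries each were 7.59 ± 1.01 CPM for AEF378, 301 ± 29.3 for AEF373 and 388 ± 23.4 for AEF149, against 3.8 ± 1.49 for the 6 libraries of AEF231. The libraries thus followed their labels. The labelled stage was checked with adult genes. Vitellogenins summed to between 48761 and 69832 CPM in every library, and 8 adult collagens to between 4057 and 8875 CPM. All 6 furrow collagens passed the filter, but they were weakly read, with 0 to 255 counts per library. Libraries counted towards the filter from 0.891 CPM, a level that dpy-3 reached in 4 AEF378, 5 AEF373 and 4 AEF149 libraries and in none of the AEF276 or AEF231 libraries. dpy-9 reached it in 3 AEF378, 3 AEF373 and 5 AEF149 libraries and in 1 library each of AEF276 and AEF231. dpy-3 and dpy-9 therefore entered the test through the array strains, and high values there are partly a condition for being tested. The biological coefficient of variation was 14% for dpy-10 and between 25.2% and 38.6% for the other furrow collagens, against 8.01% for genes in common.

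In AEF373, dpy-2, dpy-3, dpy-7 and dpy-10 rose, with mean levels several times those of the control, while dpy-8 and dpy-9 did not pass the test. The 4 genes that rose were read higher in every AEF373 library than in any AEF231 library. dpy-7, whose promoter is widely used to drive transgenes in the epidermis, had 18.1, 17.1, 12, 6.28 and 8.53 CPM in the AEF373 libraries. In the AEF231 libraries dpy-7 lay between 0.337 and 1.59 CPM, with a median of 0.746. The lowest AEF373 library thus lay well above the highest control library. The log2 fold change of dpy-7 was 4.02 ± 0.32 (SE), a 16.2-fold difference, with an adjusted p of 5.84e-11 (edgeR quasi-likelihood test, Benjamini-Hochberg over all genes tested, threshold 0.05).

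dpy-3, the furrow collagen with the fewest control reads, had 12.3, 13, 9.24, 4.49 and 5.24 CPM in AEF373 libraries. Its AEF231 libraries ran from 0 to 0.856 CPM with a median of 0.436, or 0 to 9 counts. In the control library without a read, replicate 5, a count of 0 allows up to 0.26 CPM, by counting error alone. The groups did not overlap, and the log2 fold change of dpy-3 was 4.39 ± 0.42, with an edgeR adjusted p of 2.97e-09. dpy-2, a collagen of which some mutant alleles give rolling as well as dumpy animals, had 12.9, 12, 12.3, 6.08 and 7.1 CPM in AEF373, against a lowest of 0.608, a median of 0.957 and a highest of 2.03 CPM in AEF231. Again no AEF373 library reached down to the control range. The log2 fold change of dpy-2 was 3.22 ± 0.28 (edgeR adjusted p = 1.22e-11).

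dpy-10, the neighbour of dpy-2 and the gene whose rolling and dumpy alleles serve as a marker in C. elegans genome editing, was the most read of the 6. It had 21.9, 14.1, 17.3, 9.78 and 10.6 CPM in AEF373 libraries, against a lowest of 2.36, a median of 3.44 and a highest of 3.72 CPM in AEF231. Its libraries were also apart, with a smaller log2 fold change of 2.20 ± 0.16 and an edgeR adjusted p of 7.8e-15. For each of the 4 genes, an exact permutation test over samples (two-sided, 462 arrangements, on the mean of log2(CPM + 0.5)) gave an unadjusted p of 0.00216, the smallest it can give here. That test takes no account of batch. Among all genes tested in AEF373 against AEF231, 17.9% were called higher, and the libraries of 7.97% lay wholly above the control. For the furrow collagens both counts were 4 of 6. Their median log2 fold change was 2.71, beside -0.01 over all genes. In these whole-worm libraries, more cells that make furrow collagens and more RNA per such cell cannot be told apart.

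**Figure D1:**
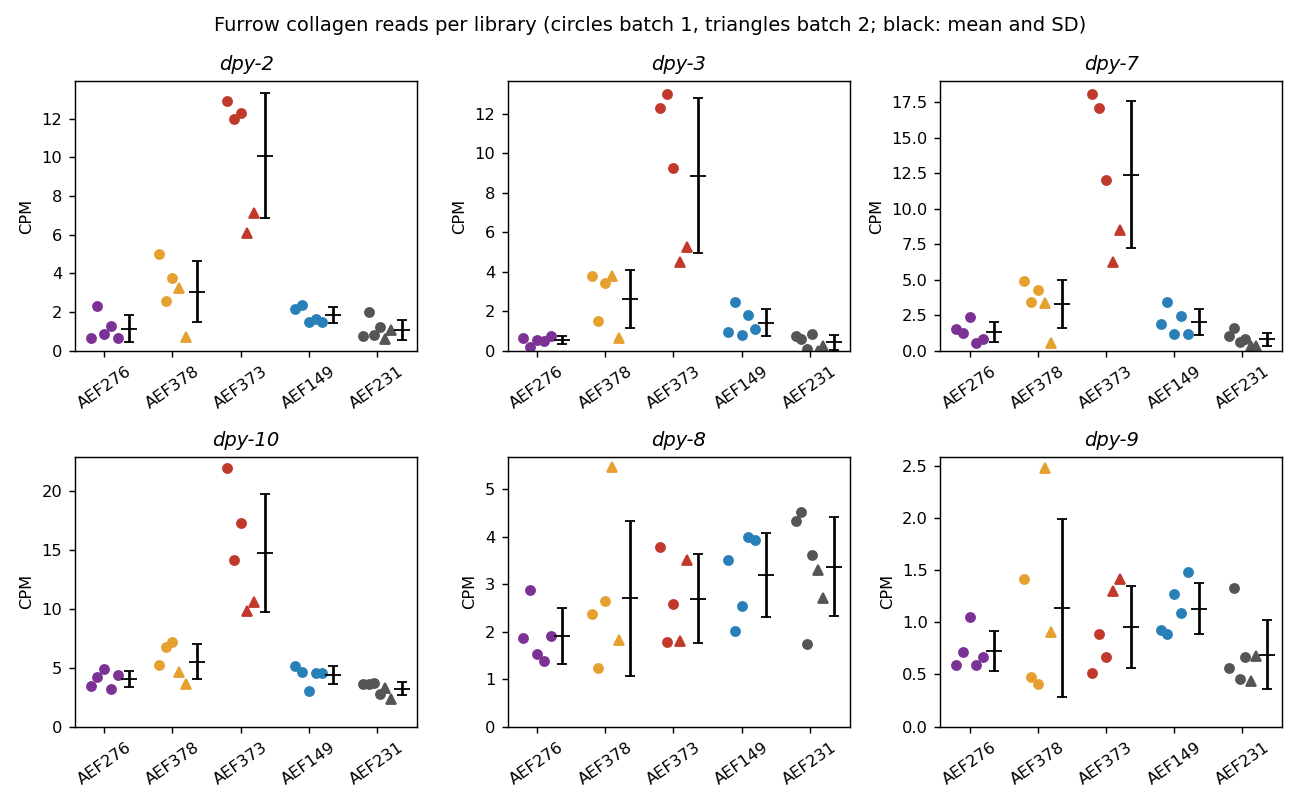
Reads of each furrow collagen in CPM (vertical axes, starting at 0) in every library of AEF276, AEF378, AEF373, AEF149 and AEF231; circles are batch 1, triangles batch 2, and the black bar gives the mean and SD. In AEF373, dpy-2, dpy-3, dpy-7 and dpy-10 lay above all AEF231 libraries, with the batch 2 libraries lowest, whereas the strains overlapped for dpy-8 and dpy-9.

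dpy-8 and dpy-9, which are also furrow collagens, did not follow the other 4. dpy-8 had 3.78, 1.78, 2.59, 1.8 and 3.51 CPM in AEF373, against a lowest of 1.73, a median of 3.46 and a highest of 4.51 CPM in AEF231. Those ranges overlapped almost completely. The log2 fold change of dpy-8 was -0.32 ± 0.29, with a 95% interval of -0.90 to 0.27 (edgeR adjusted p = 0.421). dpy-9 had 0.516, 0.888, 0.666, 1.3 and 1.42 CPM in AEF373, against a lowest of 0.434, a median of 0.615 and a highest of 1.33 CPM in AEF231. The 2 AEF373 libraries of batch 2 were its highest, and the groups overlapped. Its log2 fold change was 0.37 ± 0.40, with a 95% interval of -0.44 to 1.18 (edgeR adjusted p = 0.507). With 5 to 19 counts per library in these strains, dpy-9 allowed a wide range of changes. For both genes the upper ends of the intervals lay below the log2 fold changes of the other 4.

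AEF378 showed the same 4 genes higher and by less. dpy-2 had 5.01, 2.56, 3.76, 3.23 and 0.728 CPM in AEF378 libraries, dpy-3 had 3.78, 1.52, 3.45, 3.81 and 0.637, and dpy-7 had 4.92, 3.42, 4.27, 3.39 and 0.546. dpy-10 had 5.2, 6.74, 7.21, 4.63 and 3.64 CPM. Replicate 5, of batch 2, was the lowest AEF378 library for each of these 4 genes and lay inside the control range, so that none of the 4 was free of overlap with the AEF231 values given above, beside 3.33% of all genes that lay wholly above the control. The log2 fold change against AEF231 was 1.51 ± 0.31 for dpy-2, 2.74 ± 0.47 for dpy-3, 2.12 ± 0.36 for dpy-7 and 0.79 ± 0.17 for dpy-10. The edgeR adjusted p was 0.000678, 0.000165, 0.000151 and 0.00116 in the same order. In AEF378, 7.68% of all genes tested were called higher and 5.92% lower, beside 4 of 6 furrow collagens called higher, and the furrow collagens' median log2 fold change was 1.15, beside 0.01 over all genes.

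With AEF378 and AEF231 fitted alone, dpy-3 did not pass the filter on low counts and 3 calls remained. Without replicate 5 of AEF378 all 4 calls stayed, with log2 fold changes of 1.69 for dpy-2, 2.90 for dpy-3, 2.30 for dpy-7 and 0.83 for dpy-10. Neither dpy-8 nor dpy-9 passed in AEF378. dpy-8 had 2.36, 1.23, 2.64, 5.46 and 1.82 CPM in its libraries, with a log2 fold change of -0.33 and a 95% interval of -0.92 to 0.27 (edgeR adjusted p = 0.52). dpy-9 had 1.42, 0.474, 0.406, 2.48 and 0.91 CPM, with a log2 fold change of 0.63 and an interval of -0.17 to 1.43 (edgeR adjusted p = 0.32). Replicate 4 was the highest AEF378 library for both of these genes. The comparisons of AEF373 and AEF378 share the AEF231 libraries and are not independent of each other.

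In AEF149, whose flp-17 level was the highest of all strains, dpy-3 was the sole furrow collagen called. It had 0.93, 2.45, 0.793, 1.81 and 1.13 CPM in AEF149, so that its lowest library overlapped the top of the AEF231 range. dpy-3 had a log2 fold change of 1.48 ± 0.50 and an adjusted p of 0.0407 in edgeR, against 6.51% of all genes called higher in that strain. The call was lost when AEF149 replicate 2 or 4 or AEF231 replicate 2, 3, 5 or 6 was left out, with adjusted p between 0.0532 and 0.14. dpy-7 had 1.86, 3.42, 1.19, 2.45 and 1.22 CPM in AEF149 and did not pass, with a log2 fold change of 1.06 ± 0.38 and an edgeR adjusted p of 0.0551. For dpy-2 the AEF149 libraries held 2.15, 2.38, 1.51, 1.63 and 1.48 CPM (log2 fold change 0.50, 95% interval -0.16 to 1.17). For dpy-10 they held 5.15, 4.61, 3.01, 4.53 and 4.54 CPM (0.25, interval -0.11 to 0.61). dpy-8 and dpy-9 averaged 3.19 ± 0.882 and 1.13 ± 0.246 CPM in AEF149, with log2 fold changes of -0.03 and 0.90 and edgeR adjusted p of 0.97 and 0.118. The difference in background between AEF149 and AEF231 cannot be told apart from the array.

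In AEF276, the loss-of-function strain, 0 furrow collagens were called by edgeR or by DESeq2, in a comparison where 20.3% of all genes tested passed in either direction, 11.2% higher and 9.08% lower. By unadjusted p, 1 of the 6, dpy-8, lay below 0.05. dpy-8 had 1.86, 2.87, 1.53, 1.37 and 1.9 CPM in AEF276 libraries, of which 2 lay below the AEF231 range of 1.73 to 4.51 CPM and 3 inside it. Its log2 fold change was -0.74 ± 0.31 (95% interval -1.37 to -0.11), with an unadjusted p of 0.0236 and an edgeR adjusted p of 0.0895. Within batch 1 alone, which holds all AEF276 libraries, it passed with a log2 fold change of -0.89 and an adjusted p of 0.0364. dpy-10 averaged 4.02 ± 0.675 CPM in AEF276 (log2 fold change 0.13, interval -0.24 to 0.49). dpy-2 averaged 1.15 ± 0.686, dpy-3 0.543 ± 0.21, dpy-7 1.33 ± 0.695 and dpy-9 0.722 ± 0.191 CPM. The 95% intervals of these 4 genes all held 0, and the widest, that of dpy-3, ran from -1.09 to 1.23.

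**Figure D2:**
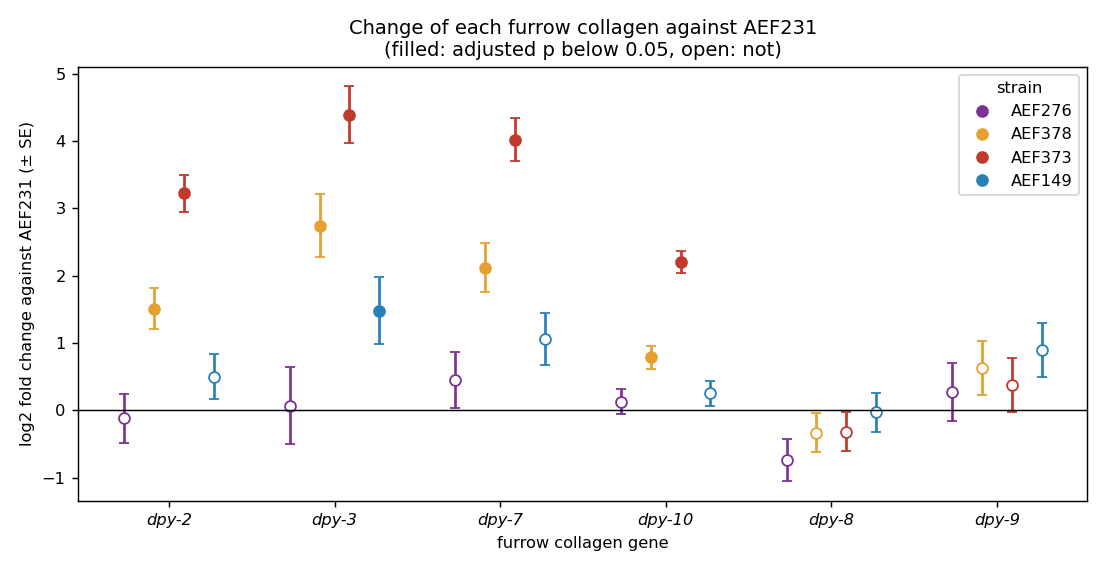
Log2 fold change of each furrow collagen against AEF231 (vertical axis) with its SE, for AEF276, AEF378, AEF373 and AEF149 in that order within each gene; filled points have an adjusted p below 0.05. dpy-2, dpy-3, dpy-7 and dpy-10 are filled in AEF373 and AEF378, dpy-3 also in AEF149, and dpy-8 and dpy-9 in no strain.

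Tests between strains other than AEF231 gave the order of the strains. AEF378 lay below AEF373 for dpy-2, dpy-3, dpy-7 and dpy-10, and the libraries of the strains did not overlap for any of the 4, beside 3.39% of all genes without overlap and 5.92% called in that direction. The log2 fold changes were -1.71 ± 0.26, -1.65 ± 0.34, -1.90 ± 0.28 and -1.41 ± 0.16, with edgeR adjusted p of 8.33e-06, 0.00167, 2.1e-05 and 5.86e-09. AEF149 was also below AEF373 for the same 4 genes, again without overlap, by log2 fold changes between -2.96 ± 0.31 for dpy-7 and -1.95 ± 0.16 for dpy-10. There 19% of all genes were called lower and 10.2% did not overlap in that direction. AEF373 exceeded AEF276 by log2 fold changes of 3.34, 4.32, 3.57 and 2.07 for dpy-2, dpy-3, dpy-7 and dpy-10, without overlap, in a comparison with 26.7% of all genes called higher and 14% without overlap. AEF378 exceeded AEF276 for the same 4 genes, by 1.63, 2.67, 1.67 and 0.66, with overlapping libraries and 19.9% of all genes called higher. Of those 4, the exact permutation test had an unadjusted p below 0.05 for dpy-3 alone (two-sided p = 0.0238, smallest possible 0.00794), and without the batch term dpy-10 was not called (edgeR adjusted p = 0.0895). The permutation test also leaves out batch, and all AEF276 libraries are in batch 1.

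The lower neighbours in this order were less well separated. AEF149 was below AEF378 for dpy-2, dpy-3, dpy-7 and dpy-10, by log2 fold changes of -1.0, -1.26, -1.06 and -0.54, with edgeR adjusted p between 0.0144 and 0.0278 and 14.2% of all genes called lower. None of the 4 had an unadjusted p below 0.05 in the exact permutation test. That test takes no account of batch, and all AEF149 libraries are in batch 1. Its log2 differences were smaller in size than those of the fit, at -0.47, -0.6, -0.48 and -0.28. The libraries overlapped for all 4 genes, and each call was lost when some single library was left out. For dpy-2 this was AEF378 replicate 1 (adjusted p = 0.0856). For dpy-3 it was AEF149 replicate 1, 3 or 5 or AEF378 replicate 1, 3 or 4, with adjusted p between 0.0538 and 0.0777. For dpy-7 it was AEF149 replicate 3 or 5 or AEF378 replicate 1, and for dpy-10 AEF149 replicate 3 or AEF378 replicate 2 or 3. AEF149 was above AEF276 for dpy-3 alone (log2 fold change 1.41 ± 0.50, edgeR adjusted p = 0.0396, no overlap), where 9.58% of all genes were called higher and 5.90% lay without overlap. That call was lost without AEF149 replicate 2 or 4 or AEF276 replicate 2, 3 or 4. dpy-8 and dpy-9 were not called in any of the 10 comparisons made. In summed level the 6 genes reached 9.67 ± 1.72 CPM for AEF276, 18.3 ± 6.31 for AEF378, 49.8 ± 16.4 for AEF373 and 14 ± 2.19 for AEF149 (SD over 5 libraries each), against 9.59 ± 2.49 for the 6 libraries of AEF231.

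The mean levels of dpy-2, dpy-3, dpy-7 and dpy-10 in AEF373 were lower in batch 2 than in batch 1, which was not tested within the strain. dpy-8 was nearly level there, at 2.72 CPM in batch 1 and 2.66 in batch 2. In AEF373, dpy-7 averaged 15.7 CPM in the 3 libraries of batch 1 and 7.41 CPM in the 2 of batch 2, and dpy-2 averaged 12.4 and 6.59 CPM. dpy-3 averaged 11.5 and 4.86 CPM, and dpy-10 17.8 and 10.2 CPM. The batch 2 libraries of AEF373 were the lowest of that strain for all 4 genes, while dpy-9 ran the other way, with 0.690 CPM in batch 1 and 1.36 in batch 2. Against the AEF231 libraries of the same batch, the 4 genes were called in AEF373 in each batch. For dpy-7 the log2 fold change was 3.91 in batch 1 and 4.41 in batch 2, for dpy-3 4.29 and 5.14, for dpy-2 3.34 and 2.94, and for dpy-10 2.37 and 1.86. In AEF378 the 4 genes were called in batch 1, with log2 fold changes of 1.61 for dpy-2, 2.30 for dpy-3, 1.99 for dpy-7 and 0.88 for dpy-10.

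In batch 2 of AEF378, with 2 libraries against 2, only dpy-3 was called (4.04, edgeR adjusted p = 0.0416). The other 3 stood at 1.23 for dpy-2, 2.53 for dpy-7 and 0.56 for dpy-10, with adjusted p of 0.273, 0.084 and 0.369. AEF378 against AEF373 within batch 2 kept the calls of dpy-2 and dpy-10. A test of whether the strain difference itself changed with the batch, chosen after the data were seen, called none of the 6 genes, with edgeR adjusted p of at least 0.598 in AEF373 and at least 0.997 in AEF378. By unadjusted p none of the 6 lay below 0.05 in that test, and its differences for the 4 genes had SEs of 0.33 to 1.24 log2 units. AEF276 and AEF149 had no library in batch 2.

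**Figure D3:**
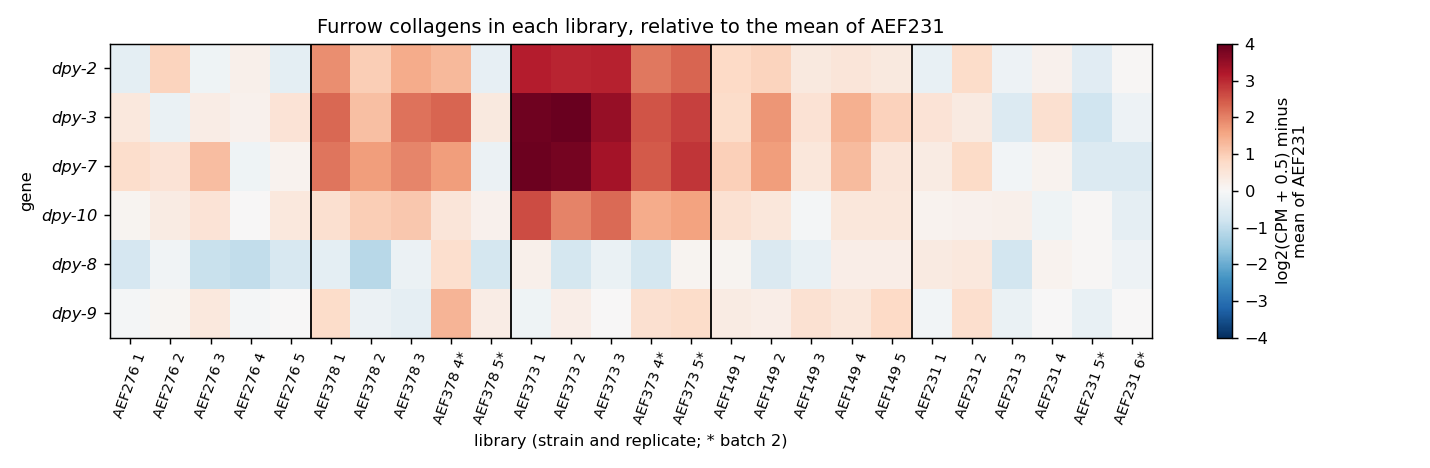
Level of each furrow collagen (rows) in each of the 26 libraries (columns, strain and replicate, asterisk for batch 2) as log2(CPM + 0.5) minus the mean of the AEF231 libraries; red is higher and blue lower, and the colour scale ends at 4 in either direction. dpy-2, dpy-3, dpy-7 and dpy-10 are red together in AEF373 and, except in replicate 5, in AEF378, while the rows of dpy-8 and dpy-9 show no such block.

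Per kilobase of exon the order of the 6 genes differed between strains. In AEF373 dpy-7 led with 10.8 ± 4.52 CPM per kb, followed by dpy-10 with 9.26 ± 3.14, dpy-3 with 9.22 ± 4.08 and dpy-2 with 7.63 ± 2.44. These neighbours lay within their own spread, while dpy-8 with 1.78 ± 0.62 and dpy-9 with 0.913 ± 0.374 were set apart below. In AEF231 dpy-8 led with 2.22 ± 0.689 CPM per kb, level with dpy-10 at 2.02 ± 0.344. dpy-2, dpy-7, dpy-9 and dpy-3 followed between 0.824 and 0.446, without a gap larger than their SDs. Of the summed level per kb of the 6 genes, dpy-8 made up 4.49% in AEF373 and 32.3% in AEF231, and dpy-3 23.3% in AEF373 and 6.50% in AEF231. In likeness of pattern over the 4 comparisons against AEF231, dpy-3 and dpy-7 were the closest pair, with a root mean square difference of 0.461 log2 units. dpy-3 and dpy-8 were the farthest apart, at 2.94. The neighbours dpy-2 and dpy-10 differed by 0.65.

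Other collagens of body shape and of the adult cuticle did not move in a single direction. Of 14 tested body shape and strut collagens, 3 rose and 6 fell in AEF373, where 17.9% of all genes were called higher and 16.9% lower. The number that rose was not far from the share over all genes. The 3 that rose did so by as much as the furrow collagens. dpy-14, a collagen needed in embryos and young larvae, averaged 102 ± 32.9 CPM in AEF373 against 5.3 ± 2.14 in AEF231, with a log2 fold change (± SE) of 4.36 ± 0.34 and an adjusted p of 2.94e-09 in edgeR. dpy-17, whose product is trimmed by the astacin protease DPY-31, averaged 118 ± 45.4 CPM against 7.88 ± 3.62 (3.95 ± 0.28, adjusted p = 6.92e-10, edgeR). The third was sqt-3, another collagen processed by DPY-31. The 6 that fell were dpy-4, dpy-5, dpy-13, rol-8, bli-2 and bli-6. dpy-5, a cuticle collagen outside the furrows, had 0.25 ± 0.174 CPM in AEF373 against 3.16 ± 2 in AEF231 (log2 fold change -3.56 ± 0.92, edgeR adjusted p = 0.00461). The median log2 fold change of the 14 was -1.61. In batch 2 alone 1 of the 14 was called lower.

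In AEF378, dpy-14, dpy-17 and sqt-3 rose, beside 7.68% of all genes called higher. There 0 of the 14 fell by edgeR or DESeq2, with none at an unadjusted p below 0.05 in that direction. dpy-14 averaged 27.7 ± 15.3 CPM in AEF378 against 5.3 ± 2.14 in AEF231 (2.40 ± 0.37, edgeR adjusted p = 0.000128), and sqt-3 25.5 ± 7.22 against 9.01 ± 4.52 (1.62 ± 0.30, 0.000862). In AEF149, where 11% of all genes were called lower, bli-6 was the only one of the 14 that passed, at 1.43 ± 0.544 CPM against 6.94 ± 2.06 (-2.13 ± 0.32, edgeR adjusted p = 1.52e-05). In AEF276 bli-6 fell as well, to 1.81 ± 0.92 CPM (-1.83 ± 0.32, 0.00018), beside dpy-5. Among 8 adult collagens, which make the cuticle of the animals sampled, 0 were called in AEF373 or AEF378 by edgeR or DESeq2, and none had an unadjusted p below 0.05. Without AEF231 replicate 5, 1 was called higher in each. 5 of the 8 fell in AEF149 and 4 in AEF276, where 9.08% of all genes were called lower. Their summed level was 6872 ± 604 CPM in AEF373, against 6669 ± 1125 CPM in AEF231. The adult collagen count in AEF276 was 2 without AEF276 replicate 1 or 4. col-129 averaged 29.4 ± 8.49 CPM in AEF149 and 53.6 ± 13.2 in AEF276, against 232 ± 96.4 in AEF231.

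**Figure D4:**
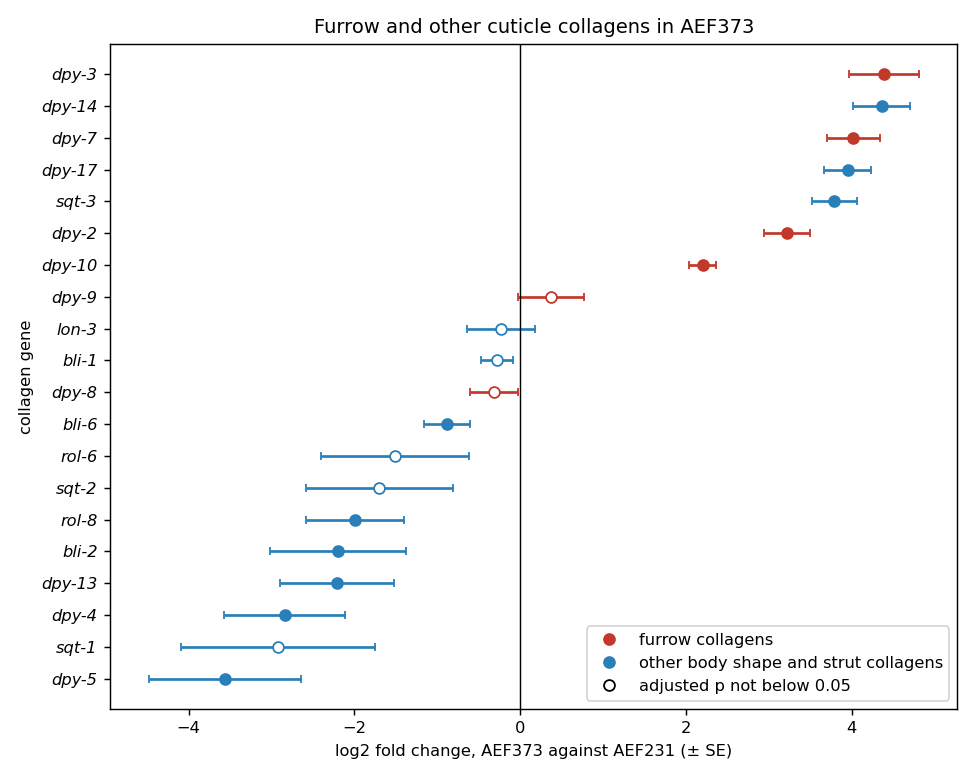
Log2 fold change of AEF373 against AEF231 (horizontal axis) with its SE for the 6 furrow collagens and the 14 other body shape and strut collagens, sorted by value; filled points have an adjusted p below 0.05. dpy-3, dpy-14, dpy-7, dpy-17, sqt-3, dpy-2 and dpy-10 stand on the right, and 6 other collagens that fell stand on the left.

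Genes of the precuticle, the transient matrix under which a new cuticle is laid down, rose in the strains where the furrow collagens rose. Of 15 tested, 14 rose in AEF373, with a list median of 2.71 log2 units, beside 17.9% of all genes called higher. In AEF378, 9 rose, with a median of 1.11, beside 7.68%. In AEF373 the largest were the cuticlins cut-3, at 23.6 ± 14.7 CPM against 0.473 ± 0.418 in AEF231 (5.67 ± 0.60, edgeR adjusted p = 2.78e-07), and cut-2, at 44.8 ± 27.2 against 1.11 ± 0.597 (5.36 ± 0.53, 9.57e-08). In AEF378 the zona pellucida domain genes noah-2 and noah-1, needed in the embryonic sheath, had log2 fold changes of 1.70 ± 0.16 and 1.58 ± 0.12. Within batch 2 alone 5 of the 15 were called higher in AEF378. In AEF149, cut-2 and cut-3 were called higher and cut-4 lower, beside 6.51% and 11% of all genes. The cut-4 call (-0.92 ± 0.32, edgeR adjusted p = 0.0406) was lost without any 1 of the AEF149 libraries or without AEF231 replicate 1, 3, 4 or 5. In AEF276, noah-1 and sym-1 were called lower, beside 9.08% of all genes.

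Among the enzymes that hydroxylate, fold, cut and cross-link collagens, 13 were tested, of which 4 rose and 1, skpo-1, fell in AEF373. Over all genes 17.9% were called higher and 16.9% lower there, and the share of enzymes called was not far from that. dpy-18, a prolyl 4-hydroxylase subunit, averaged 38.7 ± 3.16 CPM in AEF373 against 29.2 ± 2.89 in AEF231 (0.40 ± 0.08, edgeR adjusted p = 7.96e-05). pdi-2, the protein disulfide isomerase that pairs with it, had a log2 fold change of 0.39 ± 0.08 (0.00014). In AEF378, pdi-2 and pdi-6 were called higher, beside 7.68% of all genes, and 1 call remained without AEF231 replicate 2, 3 or 6 or AEF378 replicate 1, 4 or 5. In AEF149, 2 rose and 2 fell, beside 6.51% of all genes called higher and 11% lower. Those that fell were bli-3, the dual oxidase that cross-links cuticle collagens (-0.40 ± 0.08, edgeR adjusted p = 0.000131), and phy-2, another hydroxylase subunit (-0.32 ± 0.09, 0.00987). In AEF276, 2 rose and 2 fell, beside 11.2% and 9.08% of all genes. skpo-1, a peroxidase, was among those that rose, by 0.17 ± 0.05 (edgeR adjusted p = 0.0123).

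Of 13 regulators of the moulting cycle, 6 rose in AEF373, 3 in AEF378, 5 in AEF149 and 1 in AEF276. The shares of all genes called higher were 17.9% in AEF373, 7.68% in AEF378, 6.51% in AEF149 and 11.2% in AEF276, so that the single call in AEF276 was no more than the share over all genes. grh-1, the Grainyhead factor of epidermal genes, averaged 10.9 ± 3.55 CPM in AEF373 against 3.8 ± 0.642 in AEF231 (1.53 ± 0.16, edgeR adjusted p = 5.68e-10), and bed-3, a zinc finger factor needed for moulting, 5.47 ± 1.69 against 1.99 ± 0.522 (1.48 ± 0.21, 6.33e-07). In AEF378 the nuclear receptor gene nhr-25, which acts in moulting, averaged 4.67 ± 1.45 CPM against 2.64 ± 0.358 (0.84 ± 0.19, edgeR adjusted p = 0.00148). In batch 2 alone 0 of the 13 were called higher in AEF378 by edgeR. In AEF149, lin-42, the period-related timing gene, had a log2 fold change of 0.96 ± 0.12 and bed-3 of 0.95 ± 0.23. lin-29, a zinc finger factor of the larval-to-adult switch, was called lower in AEF149, at 5.19 ± 0.524 CPM against 7.02 ± 0.435 (-0.41 ± 0.14, edgeR adjusted p = 0.0359). The lin-29 call was lost without AEF149 replicate 1, 2, 3 or 5 or AEF231 replicate 1, 2, 3, 5 or 6. nhr-23, the receptor gene that drives furrow collagen transcription in larvae, averaged 65.3 ± 6.25 CPM in AEF373 against 71.0 ± 5.26 in AEF231 and did not pass (-0.13 ± 0.06, edgeR adjusted p = 0.0835). It was looked at after its value was seen.

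Genes of the osmotic, antimicrobial and detoxification responses to furrow loss were followed as 3 lists, which hold regulators as well as induced genes. In AEF373 they are to be read beside 17.9% of all genes called higher and 16.9% lower. Of 6 osmotic response genes 3 rose in AEF373, among them osm-8, a mucin-like gene of the epidermis, at 1.52 ± 0.45 CPM against 0.21 ± 0.107 in AEF231 (2.80 ± 0.50, edgeR adjusted p = 2.27e-05). osm-11, a secreted regulator of the osmotic response, had a log2 fold change of 0.28 ± 0.07 (0.00135). ptr-23 was the other (0.32 ± 0.10, 0.00889). The enzyme gene of glycerol synthesis gpdh-1, the usual reporter of that response, was not called (-0.30 ± 0.21, edgeR adjusted p = 0.282). Nor were gpdh-2 (0.03 ± 0.04, 0.616) and hmit-1.1 (-0.23 ± 0.15, 0.224). Of 7 tested antimicrobial peptide genes of the epidermis 4 rose, with cnc-2 at 3.14 ± 1.27 CPM in AEF373 against 0.598 ± 0.233 in AEF231 (2.37 ± 0.38, edgeR adjusted p = 3.55e-06) and nlp-29 at 6.62 ± 0.779 against 3.74 ± 1.06 (0.87 ± 0.19, 0.000487). nlp-27 was called lower, a call lost without any 1 of the AEF373 libraries or without AEF231 replicate 1, 2, 5 or 6. Of 5 detoxification genes gst-10 fell in AEF373, and 0 rose by edgeR or DESeq2, with none at an unadjusted p below 0.05 in that direction. Of 9 genes of epidermal innate signalling 4 rose there.

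In AEF378, osm-11 and the Tribbles-related gene nipi-3 were the only genes called on these lists by edgeR, while DESeq2 called 1 detoxification gene lower. Over all genes, edgeR called 7.68% higher and 5.92% lower there. osm-11 was lost without AEF231 replicate 3 or 4 or AEF378 replicate 1, 3 or 4, and nipi-3 without AEF231 replicate 3 or AEF378 replicate 4 or 5. In AEF149, gpdh-1 was called lower and no other gene of these lists was called, beside 6.51% of all genes called higher and 11% lower. The gpdh-1 call was lost without AEF149 replicate 2 or 3 or AEF231 replicate 4 or 5. In AEF276, gst-4 and gst-10, glutathione S-transferase genes of the stress response, fell, by log2 changes of -0.70 ± 0.13 and -1.0 ± 0.17 (edgeR adjusted p = 0.00014 and 5.32e-05). ptr-23, a patched-related gene that acts with osm-8, had -0.36 ± 0.11 (0.0134), and dcar-1, the receptor gene upstream of nlp-29, -0.28 ± 0.09 (0.0274), a call lost without AEF231 replicate 1 or AEF276 replicate 5. skn-1 was the gene called higher in AEF276, a call lost without AEF231 replicate 1, 2 or 3 or AEF276 replicate 2. Over all genes, 11.2% were called higher and 9.08% lower in AEF276.

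Markers of the epidermis and of embryos moved in AEF373 beside the furrow collagens. Of 13 tested epidermis markers 7 rose and 1 fell, beside 17.9% and 16.9% of all genes. The list summed to between 965 and 1198 CPM in AEF373 libraries, against 761 to 899 CPM in AEF231. That sum was made up largely of vab-10, at 608 ± 58.4 CPM in AEF373 and 446 ± 39.1 in AEF231. lin-26, elt-1, elt-3, che-14 and grd-10 were not called in AEF373, with lin-26 at a log2 fold change of -0.03, elt-1 at 0.07 and elt-3 at 0.23. wrt-10 and wrt-2, hedgehog-related genes of the epidermis, had log2 fold changes of 2.83 ± 0.34 and 1.93 ± 0.25 (edgeR adjusted p = 2.26e-07 and 1.77e-07). Of 8 late embryo and hatching markers 6 rose in AEF373, and the list summed to between 37.6 and 91.5 CPM there, against 9.87 to 14.7 CPM in AEF231. Each of the 8 had reads in every strain, and cut-3 and cut-5 stand on the precuticle list too. pqn-73 averaged 9.11 ± 4.02 CPM in AEF373 against 0.109 ± 0.15 in AEF231 (6.44 ± 0.48, edgeR adjusted p = 3.23e-12). The part of these markers in the higher furrow collagen reads was not tested.

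The same lists were counted in the other strains, to be read beside the shares over all genes. Of all genes tested, 7.68% were called higher and 5.92% lower in AEF378, 6.51% and 11% in AEF149, and 11.2% and 9.08% in AEF276. For AEF373 these shares were 17.9% and 16.9%. In AEF378, 2 of 8 late embryo markers rose. They were hch-1, the hatching enzyme gene (2.12 ± 0.33, edgeR adjusted p = 1e-04), and pqn-73, and the list summed to 13.8 to 26.5 CPM in AEF378. 4 of 13 epidermis markers rose, among them the junction genes dlg-1 (0.44 ± 0.07) and ajm-1 (0.29 ± 0.06), and the list summed to 860 to 945 CPM. In AEF149 the late embryo list summed to 8.88 to 24.1 CPM and the epidermis list to 701 to 754 CPM, and in AEF276 to 10.1 to 14.9 CPM and 702 to 853 CPM. On the late embryo list cut-3 and, close to the threshold, pqn-73 were called higher in AEF149 and hch-1 lower. Of the epidermis markers 2 were called higher and 3 lower in AEF149. pqn-73 was also called higher in AEF276 (2.73 ± 0.65, edgeR adjusted p = 0.00338), where grd-3 and grd-10 of the epidermis list were called lower. Within the epidermis sum, vab-10 averaged 486 ± 26.4 CPM in AEF378, 386 ± 29.1 in AEF149 and 438 ± 49.6 in AEF276. The early embryo list was lower in sum in each of the other strains than in AEF231, a sum made up largely of nhr-2 and vet-6, at 19.1 and 10.6 CPM in AEF231. The 13 members with a row summed to 31 ± 2.33 CPM (SD) for AEF276, 28.3 ± 4.28 for AEF378, 28.5 ± 0.97 for AEF373 and 25.4 ± 3.6 for AEF149, against 40.2 ± 2.89 for AEF231. 4 of them were tested, of which vet-6 and nhr-2 fell in AEF373 and AEF378, vet-6 and sdz-28 in AEF276, and all 3 in AEF149. The fourth, pes-1, was not called in any strain and averaged 3.34 ± 0.816 CPM in AEF149 against 3.17 ± 0.635 in AEF231. med-1 and med-2, which define the earliest endoderm and mesoderm precursors, were at 0 in AEF231 and AEF378. Both had reads in AEF276 and AEF373, and med-2 also in AEF149. The highest library held 0.0998 CPM of med-1 and 0.19 CPM of med-2, too little to set the strains apart. Among 6 vitellogenins, the yolk genes of the adult intestine, 4 fell in AEF373, with vit-1 at 2256 ± 749 CPM against 3916 ± 595 in AEF231 (-0.86 ± 0.10, edgeR adjusted p = 3.11e-07). 4 vitellogenins also fell in AEF149, among them vit-1 at 2511 ± 211 CPM (-0.47 ± 0.10, edgeR adjusted p = 0.00197), and 2 were called lower with batch 1 alone. In AEF378 vit-1 and vit-3 fell, with 0 called in either batch alone. In AEF276, 0 were called by edgeR or DESeq2, with none at an unadjusted p below 0.05.

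The genes nearest in pattern to the median of the 6 furrow collagens were sought among 12899 genes, by the root mean square difference over the 4 log2 fold changes against AEF231. That measure rests on 4 values that share the same control. The median mixes the genes that rose with dpy-8 and dpy-9. In AEF373 it was 2.71, between dpy-10 at 2.20 and dpy-2 at 3.22. The nearest was fmi-1, a Flamingo-type cadherin gene of axon guidance, with a difference of 0.108. fmi-1 averaged 6.82 ± 1.48 CPM in AEF378 and 20.9 ± 6.95 in AEF373, against 3.24 ± 1.33 in AEF231, with log2 fold changes of 1.15 and 2.74 (edgeR adjusted p = 8.75e-06 and 2.13e-17). Y73E7A.8 followed at 0.116, nphp-1, a nephrocystin gene of cilia, at 0.133 and F13E9.11 at 0.165. K10D3.4, Y110A2AL.4, T19A5.3 and F23H12.5 lay between 0.2 and 0.233. None of these 8 genes is on the collagen or precuticle lists. The ranking does not show which genes follow dpy-2, dpy-3, dpy-7 and dpy-10 most closely. The collagens dpy-14, dpy-17 and sqt-3, for instance, lay above the median in AEF373, with log2 fold changes of 4.36, 3.95 and 3.79.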

How the data were processed

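The authors deposited a table of read counts for each gene in each library, and these counts were used unchanged. Per the submitters' processing notes, reads were aligned with STAR 2.7.11b to ce11. The sources used here do not name the counting tool, its handling of strand and overlaps, or a filter. Symbols were matched to Ensembl's annotation of WBcel235, which is the assembly ce11. 40782 of 42533 matched, and the others held 3.60% of the counts. Positions and exon lengths come from it.

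All 26 libraries were fitted together with edgeR 4.0.16 (R 4.3.3; robust quasi-likelihood, TMM scaling, filterByExpr by strain) with terms for strain and batch, and p was adjusted by Benjamini-Hochberg over all 13315 genes tested, at 0.05. CPM values are edgeR's on the TMM scale. Intervals and floors (3 counts) cover counting error or library spread only. Pairs of replicates differed by more than sampling noise, with a chi-square per gene of 3.32 to 14.3 over 55 pairs.

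The 6 genes and all lists were chosen with earlier results of these data known. Named were the 6 genes, flp-17, for each of the 13 other lists and each comparison against AEF231 up to 2 of the largest changes past the threshold without overlap, and the 8 nearest genes by pattern. Some genes picked by the rule for lists were left out of the text, such as col-7 in AEF276 and col-62 and vit-3 in AEF149. Other genes, named to spell out a count, and nhr-23 were chosen after their values were seen. Alternatives were DESeq2 1.42.0, other size factors, filters, thresholds and fits, single batches, a block for the replicate number, an exact permutation test without a batch term and each library left out. Sequences were not analysed here.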

Additional observations from a re-analysis of the deposited data

Results flagged for a closer look

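3 single libraries stood apart from the others of their strain for a furrow collagen, among 30 groups of libraries checked by the gap to the next library over the group's range (Dixon's 95% critical value). Chance flags about 1 in 20 such groups. dpy-9 was high in AEF276 replicate 3, at 1.05 CPM. It was also high in AEF231 replicate 2, at 1.33 CPM. dpy-10 was low in AEF149 replicate 3, at 3.01 CPM. dpy-9 was called in no comparison with all libraries. dpy-10 was called lower with all libraries in AEF149 against AEF373 and against AEF378, and without AEF149 replicate 3 the first call stayed and the second was lost (edgeR adjusted p = 0.0898).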

How the results depend on the processing

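All 4 calls in AEF373 against AEF231, AEF373 against AEF276 and AEF149 against AEF373 stayed at 4 under each alternative run. The causes of the changes below were not tested. The permutation test takes no account of batch, so it does not measure the same difference as the main fit. In AEF276 against AEF231 (0 called) the count was 1 with batch 1 alone, no filter, only the strains compared and the exact permutation test (unadjusted), and 0 to 1 with a library left out. In AEF378 against AEF231 (4) it was 1 with batch 2 alone, which leaves 2 libraries a strain, and 3 with only the strains compared, where dpy-3 failed the filter. In AEF149 against AEF231 (1) it was 2 with batch 1 alone, no filter and no robust weights, 0 with only the strains compared and at a threshold of 0.01, 5 in the permutation test, and 0 to 2 with a library left out. With only these strains compared, dpy-3 failed the filter and was not tested. In AEF378 against AEF373 (4) it was 2 with batch 2 alone. In AEF149 against AEF276 (1) it was 2 with batch 1 alone and no filter, 0 without the batch term and at 0.01, 3 in the permutation test, and 0 to 1 with a library left out. With only these strains compared it was still 1, but the gene called was dpy-8, and dpy-3 failed the filter and was not tested. In AEF378 against AEF276 (4) it was 1 in the permutation test and 3 without the batch term and with only the strains compared. In the last of these dpy-3 again failed the filter. In AEF149 against AEF378 (4) it was 0 without the batch term, at 0.01 and in the permutation test, 1 with only the strains compared, 3 with batch 1 alone, and 1 to 4 with a library left out.

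Replicate numbers did not pair the libraries: over 50 same-number pairs across strains the correlation of deviations lay between -0.25 and 0.14, and 2 exceeded 0.1. With a replicate block the count in AEF149 against AEF378 was 2. In AEF149 against AEF231 the count stayed at 1, with dpy-7 called (adjusted p = 0.043, edgeR) in place of dpy-3 (0.0516).

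Log2 fold changes that turned sign were of genes not called. dpy-2 in AEF276 against AEF231 was 0.12 without the batch term, 0.0224 with the replicate block, 0.0275 in the permutation test and -0.61 to 0.0736 with a library left out. dpy-3 there was -0.14 with batch 1 alone and -0.22 to 0.29 with a library left out, and dpy-9 -0.0902 with batch 1 alone. dpy-8 turned to 0.30 in AEF378 against AEF231 with batch 2 alone, ran from -0.18 to 0.14 in AEF149 against AEF231 with a library left out, and in AEF378 against AEF373 was 0.44 with batch 2 alone, 0.00593 without the batch term and -0.47 to 0.17 with a library left out. dpy-9 turned to -0.15 in AEF373 against AEF231 and -0.0549 in AEF373 against AEF276 with batch 1 alone, and to -0.0381 in AEF149 against AEF378 without the batch term, and ran from -0.19 to 0.43 in AEF378 against AEF373 with a library left out. Low counts limit dpy-3 and dpy-9 most.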
